A study of Homo sapiens with 8 samples.

Results

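The 38 genes described here form a module around G1 control of the cell cycle. Most are the D and E cyclins, the cyclin-dependent kinases (CDKs) they activate, the CDK inhibitors, the retinoblastoma (RB) family pocket proteins, the E2F transcription factors with their DP partners, and subunits of the MuvB complex with MYBL2. The module also holds CDK7 with its cyclin CCNH, CDK9, CDC25A, SKP2, CKS1B, CDKN3 and CCNG2. Members were taken by gene symbol from the Molm13 count table, which lists 57992 genes, and by the same gene identifier from the THP1 table, which lists 58174. All 38 were found in both tables. In G1, cyclin D with CDK4 or CDK6 and then cyclin E with CDK2 phosphorylate RB, which frees E2F and DP dimers to switch on the genes of S phase. INK4 proteins hold back CDK4 and CDK6, and CIP and KIP proteins hold back CDK2. In resting cells the pocket protein RBL2 with E2F4, DP and MuvB forms the repressive DREAM complex, whereas MuvB with MYBL2 turns on genes of G2 and mitosis.

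Polyadenylated RNA was sequenced from 2 human acute myeloid leukemia (AML) lines, labelled Molm13 and THP1. Lines of these names are known to carry an MLL gene fusion, which was not checked in these libraries. Each line held a control hairpin (shCtrl, genotype WT in the labels) or a hairpin against PRMT9 (shPRMT9, genotype PRMT9 knockdown), a protein arginine methyltransferase. Dox induction was given to all 4 groups, controls included, and each group had 2 libraries. The numbers 1 and 2 in the sample titles were read as replicates. The labels do not say whether they stand for repeat cultures or, in the shPRMT9 groups, for 2 different hairpins, as the study uses such names elsewhere, so the spread may include a difference between hairpins. Nothing states that the libraries came from separate cultures, so every p-value below measures only the spread between these libraries, which may be technical.

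Library totals ran from 18720950 to 27356870 counts. PRMT9 itself fell from 4.05 and 3.67 to 0.540 and 0.654 RPKM in Molm13 and from 3.07 and 3.17 to 0.597 and 0.685 RPKM in THP1. RPKM scales a count for exon length and library size. The log2 fold change was -2.68 ± 0.14 (SE) in Molm13 and -2.29 ± 0.13 (SE) in THP1, with adjusted p of 1.2e-21 and 3.5e-14 by the quasi-likelihood test of edgeR, adjusted after Benjamini and Hochberg. Of 12 myeloid markers, 11 in Molm13 and 11 in THP1 exceeded an RPKM of 1 in at least 1 library. T cell, erythroid, epithelial and fibroblast markers were near 0. MEIS1 had between 4 and 9 counts in the THP1 libraries, and the B cell factor PAX5 had between 741 and 866 counts in the Molm13 libraries. In THP1 PAX5 went from 64 and 86 to 298 and 276 counts after shPRMT9 (log2 2.03, called higher), and its part in the results was not tested. The titles of the THP1 libraries carry the letters OCI, and THP1 is used here as the labels give it.

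A member was called where the adjusted p was below 0.05, the fold change exceeded 1.5 in either direction and the RPKM exceeded 1 in at least 1 library of the comparison. In Molm13, 36 of the 38 members were abundant enough to be tested. Of these, 19 were called lower after shPRMT9 and 3 were called higher. Among all 16446 genes tested, 11.3% were called lower and 11.4% higher. The members called lower took in all 3 activator E2Fs, 4 of 5 repressor E2Fs, both E cyclins, CDK2, CDC25A, SKP2 and MYBL2. The median log2 fold change of the 36 was -0.60, against 0.00047 for all genes tested. In THP1, 35 members were tested, 5 were called lower and 0 higher, with 2.39% of all 16294 genes called lower and 3.83% higher. By the adjusted p alone, 24 members were lower and 7 higher in Molm13, beside 33.5% and 33.4% of all genes, and 17 were lower and 4 higher in THP1, beside 18.6% and 19.0%. The 2 groups of libraries did not overlap for 32 of 36 members in Molm13 and 28 of 35 in THP1, where 81.9% and 66.0% of all genes tested did not overlap either. The THP1 median was -0.12. In bulk RNA, fewer cells in a phase of the cycle and less RNA per cell cannot be told apart.

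**Figure D1:**
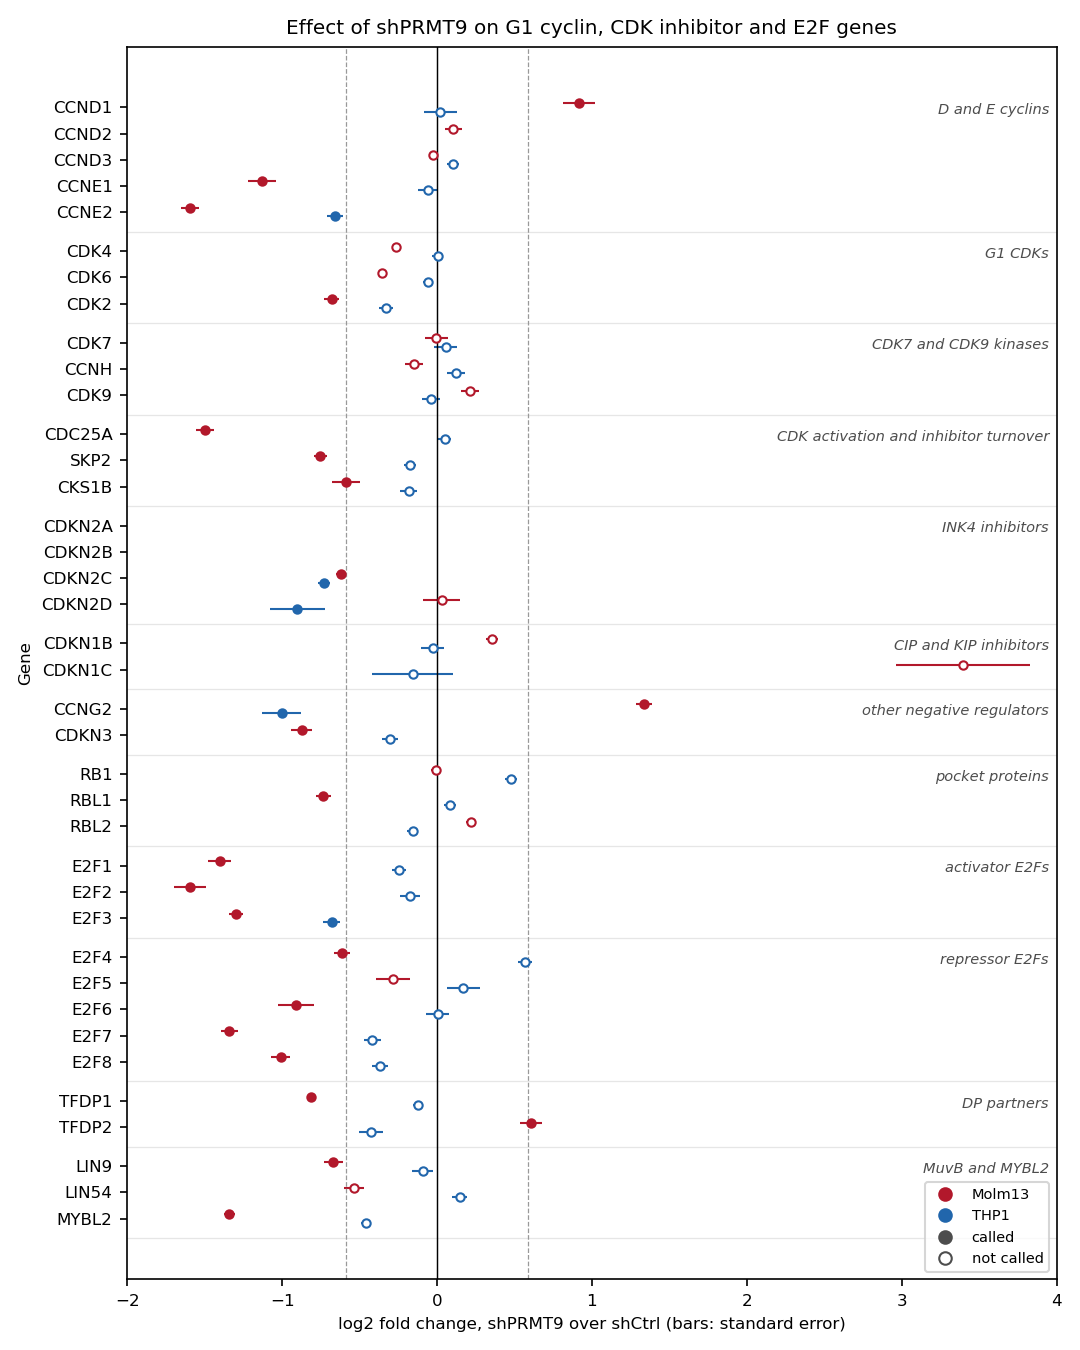
Log2 fold change, shPRMT9 over shCtrl, of each tested member in Molm13 (red) and THP1 (blue), with bars for the standard error, filled points for called genes and dashed lines at a fold change of 1.5. In Molm13, 19 filled points lie to the left and 3 to the right, and in THP1 5 lie to the left. CDKN2A and CDKN2B had no counts, and CCND2 was not tested in THP1.

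The activator E2Fs, which drive entry into S phase, showed the lowest group median of the module in Molm13, -1.40. E2F1 (chr20:33675683-33686404 on hg38, minus strand) stood at 13.7 and 14.4 RPKM in the Molm13 controls and 5.22 and 5.33 after shPRMT9, a log2 fold change of -1.40 ± 0.07 (SE, adjusted p = 5.5e-21). E2F2 went from 3.40 and 3.53 to 1.08 and 1.20 RPKM, a log2 fold change of -1.59 ± 0.10 (adjusted p = 3.3e-18). E2F3 went from 19.7 and 20.1 to 8.06 and 8.09 RPKM (-1.30 ± 0.05, adjusted p = 2.2e-27). For each of the 3 genes both knockdown libraries lay far below both controls. The THP1 libraries held more E2F1, at 36.6 and 35.6 RPKM in controls and 30.1 and 31.0 after shPRMT9, and the fall there was -0.25 ± 0.04 (adjusted p = 4.7e-05), which is under the fold limit. E2F2 in THP1 measured 5.47 and 5.45 against 5.05 and 4.67 RPKM (-0.17 ± 0.07). E2F3 was the activator called lower in THP1, from 11.0 and 11.4 to 6.79 and 7.30 RPKM (-0.68 ± 0.06, adjusted p = 6.8e-11). The fall of each activator was smaller in THP1 than in Molm13, and the difference between the log2 fold changes, THP1 minus Molm13, was 1.17 ± 0.09 for E2F1 (adjusted p = 1.9e-21), 1.43 ± 0.13 for E2F2 (adjusted p = 1.8e-17) and 0.63 ± 0.07 for E2F3 (adjusted p = 3.1e-12). The E2F3 difference lay close to the fold limit and dropped as low as 0.54 when THP1 shPRMT9 replicate 2 was left out.

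Several E2F genes are themselves known targets of E2F factors, so the promoter windows of the members were read for the letters of an E2F word. RefSeq windows on GRCh38.p14, from 250 bases before to 50 after a start, were at hand for 31 of the 38 members. CCND1, CCND2, CCNE2, CDK2, CDKN1C, E2F5 and E2F8 had none. An E2F word was any of TTCCCGC (as in LIN9), TTCGCGC (as in RBL1), TTGCCGC (as in E2F1) and TTGGCGC (as in E2F2), read on either strand. In the first window listed for each gene, 9 of the 16 members called lower in Molm13 held at least 1 word (56.2%), and 0 of the 15 other members did. Of all 35116 windows in the table, 13% held one. Where every listed start was read, for 10 members with several, the counts were 10 of 16 and 0 of 15, against 15.3% of genes. The 8 members with a word before the start are shown, all of them called lower in Molm13, and capitals mark the words. The stretches lie at chr20:33686386-33686443 for E2F1, chr1:23531243-23531299 for E2F2, chr6:20401801-20401878 for E2F3, chr12:77065671-77065770 for E2F7, chr13:113584608-113584664 for TFDP1, chr20:37095998-37096047 for RBL1, chr3:48188426-48188485 for CDC25A and chr1:226309504-226309535 for LIN9. E2F3 and TFDP1 are on the plus strand and the others on the minus strand.
E2F1: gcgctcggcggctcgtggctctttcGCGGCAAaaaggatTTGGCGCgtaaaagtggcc
E2F2: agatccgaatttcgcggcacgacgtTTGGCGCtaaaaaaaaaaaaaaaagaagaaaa
E2F3: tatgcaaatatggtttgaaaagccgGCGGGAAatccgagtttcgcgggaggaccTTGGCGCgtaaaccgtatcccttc
E2F7: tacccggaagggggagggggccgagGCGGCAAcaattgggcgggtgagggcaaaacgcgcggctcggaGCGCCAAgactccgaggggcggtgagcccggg
TFDP1: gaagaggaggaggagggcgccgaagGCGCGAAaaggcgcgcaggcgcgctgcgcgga
RBL1: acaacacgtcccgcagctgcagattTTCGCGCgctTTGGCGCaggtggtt
CDC25A: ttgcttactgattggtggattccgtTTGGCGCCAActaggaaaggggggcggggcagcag
LIN9: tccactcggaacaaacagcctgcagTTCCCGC

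The word TTGGCGC stood between positions -43 and -9, counted from the start, in E2F1, E2F2, E2F3, RBL1 and CDC25A. In E2F7 it lay farther out, from -133 to -127, on the other strand (read as GCGCCAA). In CDC25A a word on each strand overlapped in the run TTGGCGCCAA. E2F6, the ninth gene, held its word after the start. As a yardstick for the words, 17 of 25 windows of known S phase E2F target genes held an E2F word (68%). So did 4 of 16 windows of G2 and M phase genes (25%) and 5 of 24 of other RB, DREAM and CDK regulator genes (20.8%). The CHR words TTTGAA and TTCGAA, which mark many G2 and M phase genes, were in 12 of 16 windows of such genes (75%), in 5 of 31 members (16.1%) and in 16.4% of all windows. These matches describe letters in a window and show no binding. The share among all genes called lower in Molm13 was not read, and the part of the words in the changes was not tested.

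The repressor E2Fs restrain the same promoters. E2F7 and E2F8, the atypical repressors that rise late in the cycle, fell in Molm13. E2F7 measured 11.8 and 11.7 RPKM in controls and 4.34 and 4.85 after shPRMT9 (log2 -1.34 ± 0.05, adjusted p = 3.5e-25). E2F8 measured 12.7 and 13.7 RPKM in controls and 6.07 and 6.93 after shPRMT9 (-1.01 ± 0.06, adjusted p = 5.6e-19). E2F6, a Polycomb-linked repressor, went from 2.87 and 2.71 to 1.59 and 1.37 RPKM (-0.91 ± 0.12, adjusted p = 4.4e-09). In THP1 the 3 genes gave log2 fold changes of -0.42, -0.37 and 0.01 in that order, and 0 of them were called. The change differed between lines by 0.94 for E2F7, 0.66 for E2F8 and 0.93 for E2F6. The E2F8 difference dropped to 0.54 when Molm13 shPRMT9 replicate 1 was left out, below the fold limit.

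E2F4, the main E2F of the DREAM complex, moved in opposite directions. Its RPKM was 16.5 and 16.1 in Molm13 controls against 10.6 and 10.6 after shPRMT9 (log2 -0.61 ± 0.05, adjusted p = 4.3e-14). In THP1 it was 18.8 and 20.2 in controls against 28 and 30.1 after shPRMT9 (0.57 ± 0.05, adjusted p = 7.1e-11). The THP1 rise was 1.48-fold, just under the fold limit of 1.5, and passed it at 0.61 or 0.62 when either THP1 shCtrl replicate 2 or THP1 shPRMT9 replicate 1 was left out. The log2 fold changes differed by 1.20 ± 0.07 (adjusted p = 1.1e-27). E2F5, a close relative of E2F4, was low in every library, between 1.34 and 1.90 RPKM, and was not called in either line.

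The partner TFDP1, which dimerizes with E2F proteins, was the member with the highest level in Molm13 controls at 97.9 and 99.98 RPKM, and fell to 55.8 and 56.3 (log2 -0.81 ± 0.03, adjusted p = 3.9e-28). The less abundant partner TFDP2 rose from 1.76 and 1.6 to 2.58 and 2.52 RPKM (0.61 ± 0.07, adjusted p = 3.4e-10), and its call was lost, at 0.55, when Molm13 shCtrl replicate 2 was left out. In THP1 neither partner was called, with -0.12 for TFDP1 and -0.43 for TFDP2. Between the lines TFDP2 differed by -1.02 ± 0.11 and TFDP1 by 0.71 ± 0.04, with adjusted p of 5.1e-14 and 3.4e-27.

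MYBL2, the B-Myb factor that joins MuvB to activate mitotic genes, went from 76.1 and 75.7 to 28.7 and 30.9 RPKM in Molm13 (log2 -1.34 ± 0.04, adjusted p = 4.8e-32). It was the most abundant member in THP1, at 142 and 135 RPKM in controls and 99.4 and 103 after shPRMT9 (-0.46 ± 0.03, adjusted p = 6.6e-12), a fall under the fold limit. The MuvB subunit LIN9 went from 11.8 and 12 to 6.83 and 8.06 RPKM in Molm13 (-0.67 ± 0.06, adjusted p = 1.6e-13). Its call rested on Molm13 shPRMT9 replicate 1, without which the value was -0.55. LIN54, the DNA-binding MuvB subunit, gave -0.53 in Molm13 and 0.15 in THP1. All 3 were called in the difference between lines, at 0.89 for MYBL2, 0.59 for LIN9 and 0.69 for LIN54. The LIN9 value sat at the limit and was below it under most alternatives, down to 0.42 without THP1 shPRMT9 replicate 1.

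**Figure D2:**
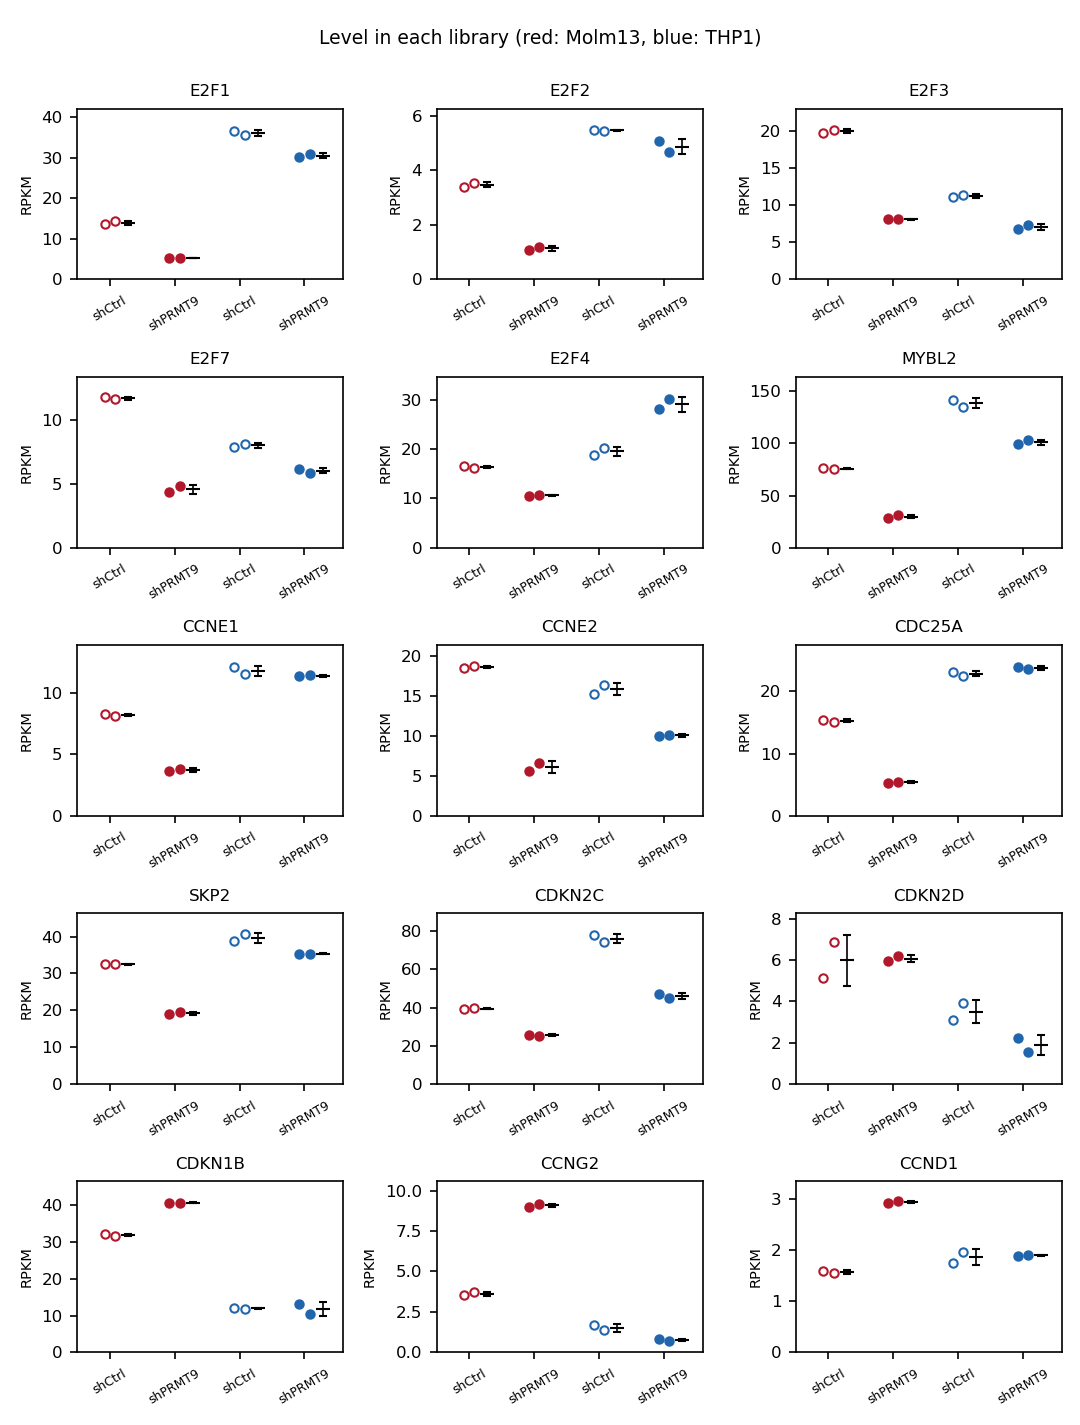
RPKM of 15 members in each library, on linear axes that start at 0, for Molm13 (red) and THP1 (blue), with open circles for shCtrl, filled circles for shPRMT9, and black marks for the mean and SD of 2 libraries. E2F1 fell from 13.7 and 14.4 to 5.22 and 5.33 RPKM in Molm13. In THP1 it fell less, from 36.6 and 35.6 to 30.1 and 31.0 RPKM. CCNG2 moved up in Molm13 and down in THP1.

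Among the pocket proteins, RBL1 (p107), which is under E2F control, went from 13.0 and 13.2 to 7.84 and 7.83 RPKM in Molm13 (log2 -0.73 ± 0.05, adjusted p = 4.5e-18). In THP1 it measured 18.6 and 19.6 against 20.5 and 20.2 RPKM (0.09 ± 0.04), and the difference between lines was 0.83 ± 0.06 (adjusted p = 1.7e-21). RBL2 (p130), the pocket protein of resting cells, gave 0.22 in Molm13 and -0.16 in THP1, both under the fold limit. RB1 was flat in Molm13, between 37.7 and 39.7 RPKM in all 4 libraries, and went from 18.3 and 18.3 to 26.3 and 25 in THP1 (0.48 ± 0.04, adjusted p = 5.3e-11), which is 1.39-fold and not a call.

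The E cyclins, the partners of CDK2 at the G1 to S transition, differed between lines. CCNE1 measured 8.23 and 8.11 RPKM in Molm13 controls and 3.61 and 3.81 after shPRMT9 (log2 -1.13 ± 0.09, adjusted p = 3.7e-15). In THP1 it measured 12.1 and 11.5 against 11.3 and 11.4 RPKM (-0.06 ± 0.06), a difference between lines of 1.09 ± 0.12 (adjusted p = 7.2e-14). CCNE2 was called in both lines. It went from 18.5 and 18.7 to 5.57 and 6.63 RPKM in Molm13 (-1.59 ± 0.06, adjusted p = 2.5e-27) and from 15.3 and 16.3 to 9.94 and 10.1 RPKM in THP1 (-0.66 ± 0.05, adjusted p = 2.9e-11). The fall in THP1 was the smaller by 0.95 ± 0.08 (adjusted p = 9.3e-19).

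The D cyclins, which link growth signals to CDK4 and CDK6, showed no shared direction. CCND1 rose in Molm13, from 1.59 and 1.54 to 2.93 and 2.97 RPKM (log2 0.92 ± 0.10, adjusted p = 1.4e-10), and overlapped between groups in THP1, where it stood between 1.75 and 1.97 RPKM (0.02 ± 0.11). CCND3, the most abundant D cyclin in both lines, changed by less than the fold limit, at -0.02 and 0.10. CCND2 had 2983 and 3777 counts in Molm13 controls and 3477 and 3807 after shPRMT9, groups that overlapped (0.11 ± 0.05). In THP1 it had 2 and 6 counts in controls and 8 and 5 after shPRMT9, too few to test. The Molm13 controls held 1128-fold more CCND2 per library size than the THP1 controls, with a 95% exact counting interval of 572 to 2614 that covers counting error only.

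Of the G1 kinases, CDK2 was called lower in Molm13, from 19.9 and 21.0 to 12.4 and 13.0 RPKM (log2 -0.68 ± 0.05, adjusted p = 8.3e-17). In THP1 the CDK2 change was -0.33 ± 0.04. CDK4 and CDK6 moved by -0.26 and -0.36 in Molm13, past the adjusted p limit but not the fold limit, and by 0.00 and -0.06 in THP1. The kinases that act mainly on other CDKs and on RNA polymerase II, CDK7 with cyclin H (CCNH) and CDK9, were not called in either line, with log2 fold changes between -0.15 and 0.21.

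CDC25A, the phosphatase that activates CDK2, went from 15.4 and 15.1 to 5.26 and 5.49 RPKM in Molm13 (log2 -1.5 ± 0.06, adjusted p = 7.0e-26). In THP1 it measured 23.1 and 22.5 RPKM in controls and 23.9 and 23.6 after shPRMT9 (0.05 ± 0.04). The difference between lines, 1.56 ± 0.07 (adjusted p = 9.6e-35), was the highest positive one of the module. SKP2 and CKS1B, which together mark the inhibitor p27 for destruction, were called lower in Molm13 at -0.75 ± 0.04 and -0.59 ± 0.09. The CKS1B value lay at the fold limit and dropped to -0.46 when Molm13 shPRMT9 replicate 2 was left out. SKP2 measured 32.4 and 32.5 RPKM in Molm13 controls and 18.9 and 19.4 after shPRMT9, and 38.7 and 40.6 against 35.4 and 35.2 in THP1. Its difference between lines, 0.59, also lay at the limit and was lower in most alternatives, down to 0.52 without THP1 shCtrl replicate 1.

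The inhibitors did not move as a block. CDKN2C (p18), an INK4 inhibitor of CDK4 and CDK6 that was called lower in both lines, went from 39.3 and 39.5 to 25.8 and 25.3 RPKM in Molm13 (log2 -0.62 ± 0.04, adjusted p = 8.5e-19). In THP1 it went from 77.8 and 74.3 to 47.3 and 44.9 RPKM (-0.73 ± 0.04, adjusted p = 2.4e-15). The difference between those falls was -0.10 ± 0.05 (adjusted p = 0.13). CDKN2D (p19) was called lower in THP1 alone, with 120 and 162 counts in controls and 84 and 57 after shPRMT9 (-0.90 ± 0.18, adjusted p = 0.00016), and its Molm13 groups overlapped (0.03 ± 0.12). The change in CDKN2D differed between lines by -0.92 ± 0.21 (adjusted p = 0.00012). CDKN2A and CDKN2B, the INK4 genes that share a locus on chromosome 9, had 0 counts in all 8 libraries. A count of 0 allows up to 3 counts, or at most 0.0367 RPKM for CDKN2A and 0.0391 RPKM for CDKN2B, and no fold was formed.

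CDKN1B (p27), a KIP inhibitor of CDK2, rose slightly in Molm13 from 32.2 and 31.8 to 40.7 and 40.8 RPKM (log2 0.36 ± 0.04, adjusted p = 3.4e-11), short of the fold limit, and its groups overlapped in THP1 (-0.03 ± 0.07). CDKN1C (p57) had 4 and 3 counts in Molm13 controls against 39 and 37 after shPRMT9. The ratio was 10.8, with a 95% exact counting interval from 5.0 to 27.8 that covers counting error only, and the test gave an adjusted p of 3.0e-09. It was not called because its RPKM stayed below 1 in every library. In THP1 it had 37 and 44 counts in controls and 33 and 35 after shPRMT9. CDKN3, a phosphatase of CDK2, fell in Molm13 from 20.6 and 19.8 to 11.6 and 10.4 RPKM (-0.87 ± 0.07, adjusted p = 4.1e-15) and gave -0.30 ± 0.05 in THP1.

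CCNG2 (cyclin G2), a cyclin associated with cell cycle arrest, was the member called in opposite directions. It went from 3.53 and 3.71 to 9.02 and 9.16 RPKM in Molm13 (log2 1.34 ± 0.05, adjusted p = 5.7e-25) and from 1.68 and 1.35 to 0.802 and 0.709 RPKM in THP1 (-1.0 ± 0.12, adjusted p = 2.0e-07). The 2 groups were far apart in Molm13 and did not overlap in THP1, where the counts were 323 and 278 against 150 and 131. The log2 fold changes differed by -2.33 ± 0.13 (adjusted p = 1.1e-29).

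Taken by line, 3 members were called lower in both (CCNE2, CDKN2C and E2F3), 0 were called higher in both, 16 were called lower in Molm13 without a call in THP1, and 1 was called higher in Molm13 and lower in THP1 (CCNG2). Of the 13476 genes tested in both lines, which include 35 members, the same patterns held for 0.534%, 2.06%, 10.7% and 0.364%. In the test of the difference itself, the log2 fold change after shPRMT9 was called higher in THP1 than in Molm13 for 16 of 36 members. It was called lower for 4 (CCND1, CDKN2D, CCNG2 and TFDP2). Of all 19288 genes tested, 9.01% were called higher and 8.78% lower. By the adjusted p alone, 25 members were higher and 8 lower, beside 22.8% and 19.4% of all genes. The median difference was 0.54, against 0.029 for all genes. Cell line and sample handling cannot be told apart in this difference.

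Known target genes of these factors were read beside the members. Of 29 S phase E2F target genes, which encode replication proteins, 25 were called lower in Molm13 and 0 higher, against 11.3% and 11.4% of all genes, and the median log2 fold change was -0.93. MCM10, a replication initiation factor, went from 19.5 and 19.2 to 5.66 and 5.49 RPKM (-1.79 ± 0.05), and GINS2, a subunit of the replicative helicase, from 11.9 and 11.2 to 3.23 and 3.45 RPKM (-1.78 ± 0.08). In THP1, 0 of the 29 were called, beside 2.39% of all genes called lower and 3.83% higher, and the median was -0.048. By the adjusted p alone, 10 were lower and 5 higher in THP1, beside 18.6% and 19.0% of all genes. Of 20 G2 and M phase DREAM target genes, 12 were called lower in Molm13 and 0 in THP1, beside 11.3% and 2.39% of all genes. Their medians were -0.66 and -0.21. For lists of this size the THP1 counts of 0 lie near the shares for all genes. CDC20, which activates the anaphase-promoting complex, fell by 1.40 and the kinetochore motor CENPE by 1.09 on the log2 scale in Molm13. With the adjusted p limit alone, 16 of those 20 were lower in THP1, against 18.6% of all genes.

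Of 27 tested genes among the other RB, DREAM and CDK regulators, 6 were called lower in Molm13 and 2 higher, beside 11.3% and 11.4% of all genes. The lowest were PKMYT1, a kinase that inhibits CDK1 (-1.64 ± 0.09), and the MYB family gene MYBL1 (-1.5 ± 0.14). CDKN1A (p21), the remaining CIP inhibitor, was called higher in both lines. It went from 86.2 and 86.9 to 136 and 135 RPKM in Molm13 (0.65) and from 2.11 and 1.80 to 4.76 and 4.83 RPKM in THP1 (1.29 ± 0.11, adjusted p = 8.6e-11). CCNDBP1, which binds cyclin D, rose by 0.76 on the log2 scale in Molm13. In the difference between lines, the log2 fold change was called higher in THP1 for 25 of 29 S phase genes. The same held for 7 of 20 G2 and M phase genes and 7 of 27 other regulators, beside 9.01% of all genes. The lists were led by MCM10 (1.64) and CDC45 (1.37), CDC20 (1.30) and BUB1 (0.86), and PKMYT1 (1.56) and FOXM1 (1.14). For 1 of the regulators, CCNDBP1, the change was called lower (-0.75), beside 8.78% of all genes.

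**Figure D3:**
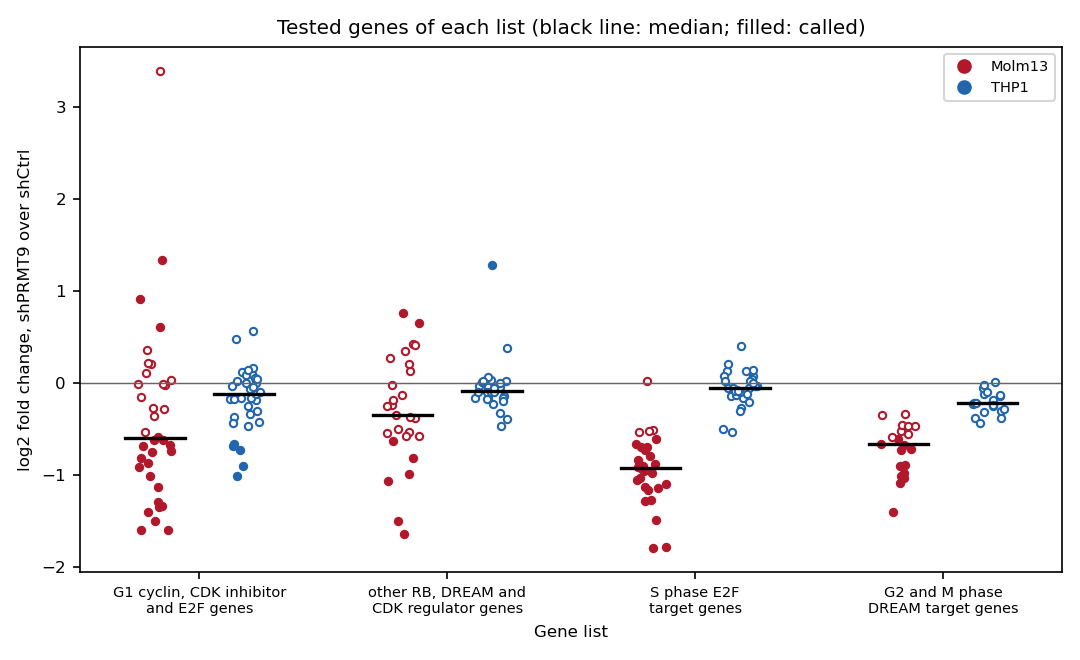
Log2 fold change, shPRMT9 over shCtrl, of every tested gene in the module and in 3 lists of related genes, for Molm13 (red) and THP1 (blue), with filled points for called genes and a black line at each median. The Molm13 medians are -0.60 for the module, -0.35 for the other regulators, -0.93 for the S phase targets and -0.66 for the G2 and M phase targets, and the THP1 medians lie between -0.21 and -0.048.

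The summed level of 12 myeloid markers was higher after shPRMT9 in both lines. It ran from 703 to 706 RPKM in Molm13 controls and from 990 to 1001 after shPRMT9, and from 1382 to 1390 in THP1 controls and from 2080 to 2168 after shPRMT9. The CSF1 receptor gene CSF1R rose by 2.06 in Molm13 and 1.03 in THP1, and the integrin gene ITGAM by 1.95 and 1.15, on the log2 scale. LYZ (lysozyme) made up most of the sum, with group means from 359 to 566 RPKM in Molm13 and from 1071 to 1757 in THP1 (log2 0.66 and 0.71). Smaller rises, not called in either line, came for SPI1 (0.47 in Molm13 and 0.42 in THP1), CD33 (0.57 and 0.15) and HOXA9 (0.26 and 0.20). Other markers did not follow in both lines. MPO (myeloperoxidase) gave -0.56 in Molm13 and was called lower in THP1 at -0.82. The Fc receptor gene FCGR1A gave -0.44 in Molm13 and -0.012 in THP1. CEBPA and FLT3 gave 0.20 and 0.28 in Molm13 and -0.12 and -0.16 in THP1. MEIS1 gave 0.24 in Molm13 and was too low to test in THP1. CD14 was too low to test in Molm13, with between 4 and 8 counts. In THP1 it did follow, from 24 and 24 to 116 and 122 counts after shPRMT9 (log2 2.40, called higher). The part of these markers in the module's changes was not tested.

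The module also differed between the control cells. Of 36 members tested, 8 were called higher and 6 lower in THP1 shCtrl than in Molm13 shCtrl, or 22.2% and 16.7%, beside 16.9% and 25.7% of all genes tested. By the adjusted p alone, 19 were higher and 15 lower, beside 40.1% and 42.7% of all genes, and the 2 groups of libraries did not overlap for 35 of 36 members, beside 90.5% of all genes. The members differed between the lines about as often as other genes. The control libraries used here are also those of the comparisons within each line. Higher in THP1 were CKS1B (log2 1.41), E2F1 (1.36), LIN54 (0.97), CDKN2C (0.95), E2F6 (0.93), MYBL2 (0.87), CDKN3 (0.78) and E2F2 (0.66). Lower were CDKN1B (-1.41), CCNG2 (-1.26), RB1 (-1.09), E2F3 (-0.83), CDKN2D (-0.76) and CCND2. The CDKN2D call was lost, at -0.53, without Molm13 shCtrl replicate 2. RB1 measured 38.9 and 39.2 RPKM in Molm13 controls and 18.3 and 18.3 in THP1 controls, and CDKN1B measured 32.2 and 31.8 against 12.1 and 11.9. Growth inhibitors went both ways. CDKN2C and CDKN3 were called higher in THP1, and CDKN2D was called lower like RB1 and CDKN1B. RBL1 (0.54) and CDKN1C (3.08) were higher by the adjusted p alone, and RBL2 (-0.34) was lower. In the target lists, TK1 (1.23) was among the S phase genes called higher in THP1, and PCNA (-1.29) and RFC3 (-0.91) were called lower. CDC20 (2.91) and BIRC5 (0.87) led the G2 and M phase list, with CDK1 at -0.96. Of the 27 other regulators, 6 were called higher, led by CUL1 (1.35), a ubiquitin ligase scaffold, and MYBL1 (1.12). Another 5 were called lower, led by CDKN1A (-5.47) and the Mediator kinase CDK8 (-1.35).

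**Figure D4:**
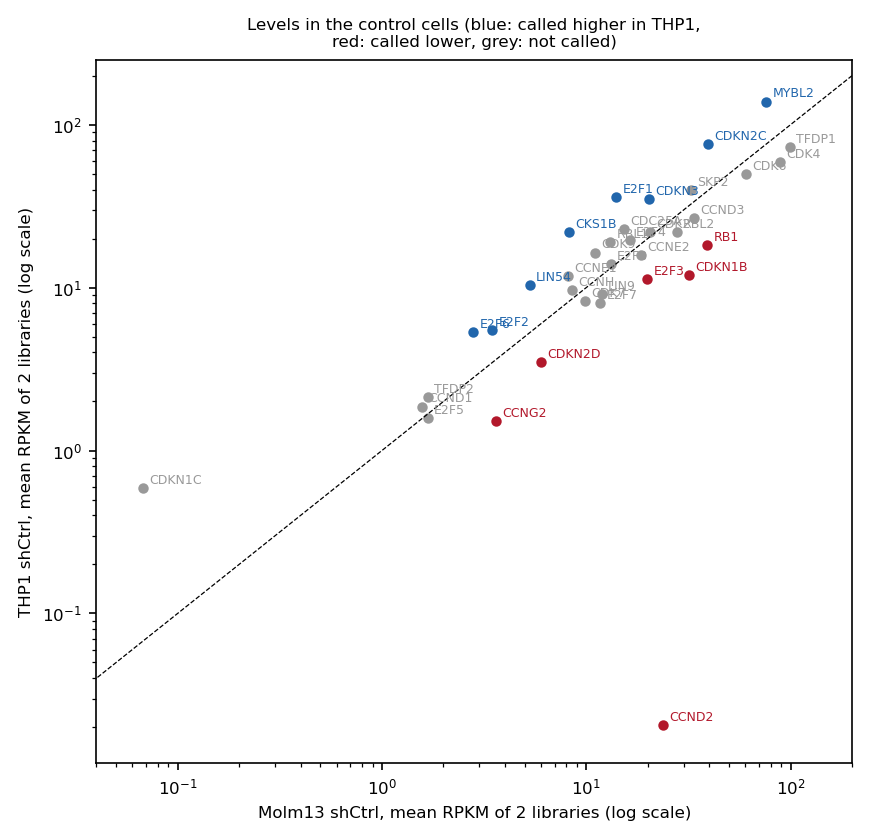
Mean RPKM of each member with counts in Molm13 shCtrl (x axis) and THP1 shCtrl (y axis), 2 libraries each, on log scales, with blue for members called higher in THP1, red for those called lower, grey for those not called, and a dashed line of equal level. Most members lie near the line, MYBL2 reaches 139 RPKM in THP1, and CCND2 lies far below the line.

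By level per exon length, the Molm13 controls were led by TFDP1 (98.9 ± 1.5 RPKM, SD, n = 2), CDK4 (88.6 ± 0.31), MYBL2 (75.9 ± 0.30) and CDK6 (60.4 ± 2.6), steps that exceeded the spread. CDKN2C (39.4 ± 0.14) and RB1 (39.1 ± 0.18) followed at nearly equal levels. The THP1 controls were led by MYBL2 (139 ± 4.8), CDKN2C (76.1 ± 2.5), TFDP1 (72.9 ± 0.29), CDK4 (59.2 ± 1.7) and CDK6 (49.6 ± 1.4), of which CDKN2C and TFDP1 differed by little more than the SD of CDKN2C. CDKN1C and CCND2 were the lowest members with counts in THP1, and CDKN1C in Molm13. Counts of some members are uncertain because other genes overlap them on the opposite strand and the strand setting of the counting was not given. Among called members this touches CCNE2, with INTS8 and NDUFAF6, CCND1, with ORAOV1, RB1, with LPAR6, and LIN54, with THAP9. The pseudogene CKS1BP6, which can share reads with CKS1B, had up to 54 counts.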

How the data were processed

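Polyadenylated RNA from 4 Molm13 and 4 THP1 libraries was analysed. The deposited values are raw counts for each gene, in a table for each line, made by the authors from Kapa mRNA HyperPrep libraries run on an Illumina HiSeq instrument. Per the submitters' processing notes, TopHat2 2.0.8, HTSeq 0.11.2, edgeR 3.30.3 and hg38 were used; the annotation and strand setting are not given in the sources used here. Of 38 members, 35 had the same start and end in GENCODE release 29.

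Each line was fitted alone with edgeR 4.0.16 in R 4.3.3 (TMM scaling, filterByExpr, quasi-likelihood test, Benjamini-Hochberg adjustment over all genes tested), and genes in both tables were fitted jointly over 8 libraries for the difference between lines and the control levels. RPKM used the exon lengths of the Molm13 table. Calls followed the study's limits, with its upper fold limit read as above 1.5. All members, PRMT9 and the 2 most changed called genes per direction of each related list were named, apart from an item that is not reported here. Replicates differed beyond counting noise. Same-numbered libraries did not deviate together (correlation -0.087 in Molm13 and -0.015 in THP1), so they were not paired. The fits were run on simulated data with 2-fold changes in genes with a mean of at least 20 counts. Such a run does not cover smaller changes, lower counts or the spread between separate cultures. The members and lists were chosen with earlier results of these data known. Alternatives were other scalings, filters, limits, DESeq2 1.42.0, a replicate block and leaving out each library.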

Additional observations from a re-analysis of the deposited data

Results flagged for a closer look

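The change after shPRMT9 differed between the lines, by the test of the difference in edgeR's joint fit, for 20 members. Values are THP1 minus Molm13 on the log2 scale. Among cyclins and their regulators they were -0.88 for CCND1, 1.09 for CCNE1, 0.95 for CCNE2, 1.56 for CDC25A, 0.59 for SKP2, -0.92 for CDKN2D and -2.33 for CCNG2. For RBL1 the value was 0.83. Among the E2F genes the values were 1.17 for E2F1, 1.43 for E2F2, 0.63 for E2F3, 1.20 for E2F4, 0.93 for E2F6, 0.94 for E2F7 and 0.66 for E2F8. TFDP1 gave 0.71, TFDP2 -1.02, LIN9 0.59, LIN54 0.69 and MYBL2 0.89. CCNG2, E2F4, TFDP2 and LIN54 passed the adjusted p limit in both lines with opposite signs. CDC25A, RBL1, E2F6 and CDKN2D also had log2 fold changes of opposite sign, without passing it in both.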

How the results depend on the processing

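All 4 pairs of counts kept their size within 1.5 times under the other scalings, filters, the joint fit, DESeq2 and the replicate block. With the block the counts were 3 higher and 19 lower in Molm13 and 0 and 5 in THP1. They were 16 and 4 in the difference and 8 and 6 between controls. Single calls were lost or gained under other settings. By library size alone CKS1B lost its Molm13 call (-0.584), and SKP2 (0.545), LIN9 (0.544) and E2F3 (0.5847) lost theirs in the difference. Between controls, CDK9 (0.589) and CDC25A (0.596) gained one by library size alone. The block changed no count of calls, and the shared numbers did not pair the libraries. Of 124 recomputed counts, 15 moved. With the adjusted p limit alone the counts were 7 higher in Molm13, 4 higher and 17 lower in THP1, 25 and 8 in the difference, and 19 and 15 between controls. With a fold change above 2 they were 1 and 9 in Molm13, 1 lower in THP1, 5 and 2 in the difference and 2 higher between controls. Leaving out each library in turn gave 2 to 3 higher and 18 to 19 lower in Molm13, 0 to 1 higher and 5 lower in THP1, 12 to 15 higher and 4 lower in the difference, and 8 to 10 higher and 5 to 7 lower between controls. Changes of sign touched only members not called in that comparison. They came in Molm13 for CDK7 (0.00065 by library size alone, 0.0090 with a mean of at least 20 counts) and RB1 (0.0062 with that mean), and in THP1 for CCND1 (-0.0056), CDK4 (-0.023) and E2F6 (-0.022) by library size alone and for CDK4 (-0.0085) and E2F6 (-0.0071) with no low-count filter. Over the left-out libraries the Molm13 values ran from -0.090 to 0.32 for CCND2, -0.081 to 0.071 for CDK7, -0.18 to 0.26 for CDKN2D and -0.029 to 0.035 for RB1. The THP1 values ran from -0.057 to 0.10 for CCND1, -0.033 to 0.035 for CDK4, -0.12 to 0.043 for CDK9, -0.20 to 0.12 for CDKN1B, -0.059 to 0.071 for E2F6 and -0.23 to 0.030 for LIN9. The difference for CDK7 ran from -0.037 to 0.11. With 2 libraries a group, precision rests on few samples.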
